A study of Mus musculus with 5 samples.

Results

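The genes described here are 10 regulators of cell cycle exit: the D-type cyclins Ccnd1, Ccnd2 and Ccnd3, the Cip/Kip inhibitors Cdkn1a, Cdkn1b and Cdkn1c, the INK4 inhibitor Cdkn2c, the antiproliferative genes Btg1 and Btg2, and Gadd45g. NEUROD2 peaks were assigned to a gene when the peak midpoint lay within the gene or up to 50 kb from either end, and overlapping peaks were merged into regions. This gave 125 peaks in 66 regions around the 10 genes, out of 53833 merged regions in the genome and 21938 protein-coding genes treated the same way. NEUROD2 is a basic helix-loop-helix transcription factor of cortical excitatory neurons, and ChIP-Seq mapped where it sits on chromatin from the cerebral cortex of BALB/c mouse embryos at E14.5. Each of 3 NEUROD2 antibodies gave 1 library, ab1 from a mouse antibody and ab2 and ab3 from rabbit antibodies, and all of them describe the same untreated tissue, pooled over embryos of several litters. GFP antibodies served as controls for peak calling, and the libraries of ab2 and ab3 shared the rabbit control.

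Progenitors of the embryonic cortex leave the cell cycle as they become neurons. D-type cyclins activate CDK4 and CDK6, which phosphorylate the retinoblastoma protein and so let cells enter S phase. INK4 proteins block CDK4 and CDK6, while Cip/Kip proteins bind cyclin-CDK complexes more widely. Btg1 and Btg2 encode antiproliferative proteins, and Btg2, also known as Tis21, marks cortical progenitors that divide to make neurons. Gadd45g encodes a stress- and differentiation-induced protein that inhibits the CDK1-cyclin B complex. NeuroD factors bind E-boxes, short sites of the form CANNTG.

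The condition has no second group and no antibody has a replicate, so no test was possible, and values are set beside the same measure over all coding genes or all regions. Each peak has a score of 10 × −log10 p, as MACS wrote it. Scores were left unscaled between libraries, no deposited peak scored under 50, and the list of ab1 held 51841 peaks, that of ab2 35310 and that of ab3 7470. A region with peaks of at least 2 antibodies is called shared. As a check of the target, the promoter of Nhlh2, which the study amplified as its positive control, held a shared region 85 bp from the transcription start site (TSS), at the scores 158.4 for ab1 and 152.8 for ab2 and without a peak of ab3. Peak lists hold no expression values, so the tissue could not be checked by marker genes, and in a whole cortex more bound cells and stronger binding per cell cannot be told apart.

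Of the 66 regions, 46 were shared (69.7%, 95% Wilson interval 57.8 to 79.4, counting error only), against 59.9% of all merged regions in the genome. All 3 antibodies had peaks in 8 regions, which is 17.4% of the shared regions (9.09 to 30.7) and lay near the 22.2% of the genome. Another 38 regions had peaks of ab1 and ab2 only. The remaining regions comprised 17 of ab1 alone and 3 of ab2 alone, and ab3 had no region to itself.

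Each of the 10 genes had a shared region in its window, a state common to 67.6% of coding genes. The all-antibody regions belonged to Gadd45g (4), Btg2 (2), Cdkn1a (1) and Cdkn1b (1), so 4 of the 10 genes had at least 1, against 26.7% of coding genes. Btg2 and Gadd45g together held 17 of the 46 shared regions and 6 of the 8 regions of all antibodies. The D-type cyclins, Cdkn1c, Cdkn2c and Btg1 had no peak of ab3 in their windows.

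**Figure D1:**
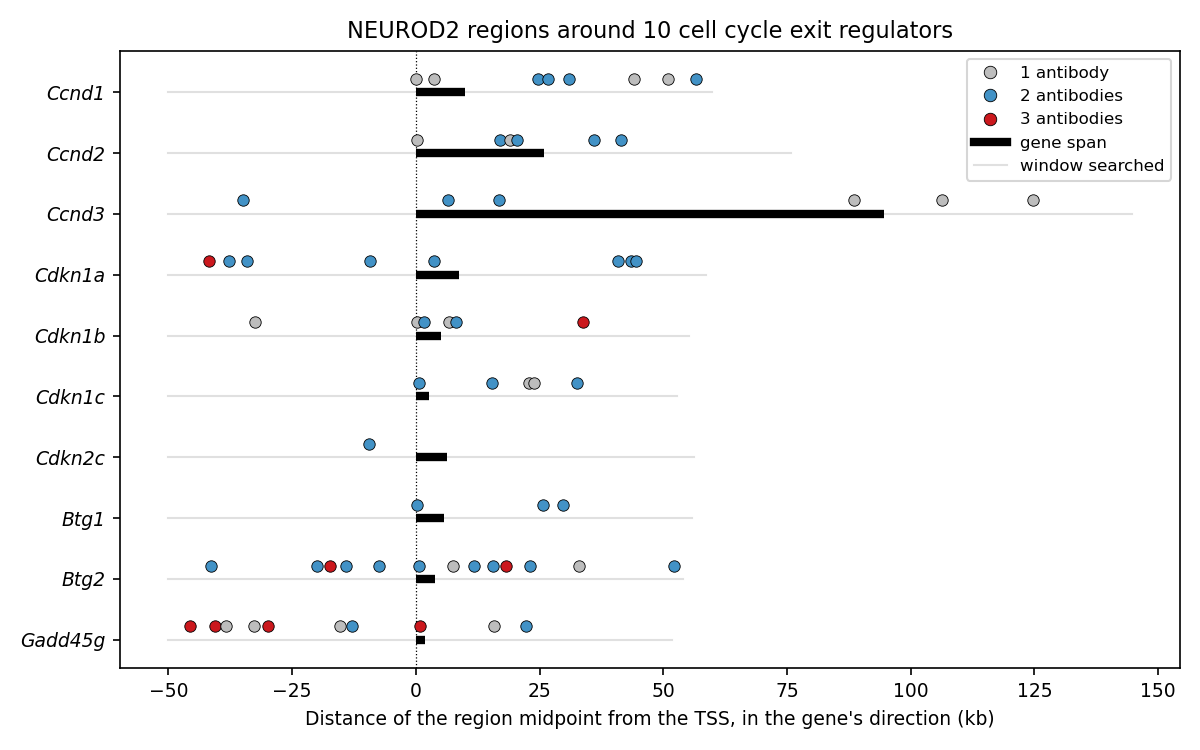
Each point is the midpoint of a region, placed by its distance in kb from the TSS along the direction of transcription (horizontal axis), with 1 row per gene. Grey, blue and red points had peaks of 1, 2 and 3 antibodies, black bars are the gene spans and thin lines the windows searched. Red points appear in the rows of Cdkn1a, Cdkn1b, Btg2 and Gadd45g, and at the TSS itself only in the row of Gadd45g.

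The sequences at the centres of these regions are shown for the E-boxes they hold. The first set holds the central 200 bp of the highest region of all 3 antibodies at each gene that had one, read from the plus strand of GRCm38 (mm10), with each extended E-box core in capitals. The extended E-box was searched on both strands as a core of CAGCTG, of CAGATG, of CATCTG or of CATATG that is followed by G or T, and a core that matched more than once was counted once.
Gadd45g, chr13:51847351-51847550, inside the gene: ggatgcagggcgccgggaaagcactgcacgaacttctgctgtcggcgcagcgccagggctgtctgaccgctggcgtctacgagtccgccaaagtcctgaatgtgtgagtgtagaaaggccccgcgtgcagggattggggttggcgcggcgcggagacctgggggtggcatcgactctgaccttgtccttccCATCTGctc
Cdkn1a, chr17:29049160-29049359, intergenic: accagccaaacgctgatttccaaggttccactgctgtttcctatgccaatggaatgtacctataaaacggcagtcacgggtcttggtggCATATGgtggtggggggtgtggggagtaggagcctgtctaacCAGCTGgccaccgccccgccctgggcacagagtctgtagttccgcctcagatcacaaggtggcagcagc
Cdkn1b, chr6:134954011-134954210, exon 2 of the noncoding gene Lockd: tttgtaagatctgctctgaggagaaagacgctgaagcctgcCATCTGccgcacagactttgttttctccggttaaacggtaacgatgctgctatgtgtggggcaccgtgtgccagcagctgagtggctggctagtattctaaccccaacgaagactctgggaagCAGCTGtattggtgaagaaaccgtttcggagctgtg
Btg2, chr1:134096314-134096513, exon of the unclassified transcript Gm38140: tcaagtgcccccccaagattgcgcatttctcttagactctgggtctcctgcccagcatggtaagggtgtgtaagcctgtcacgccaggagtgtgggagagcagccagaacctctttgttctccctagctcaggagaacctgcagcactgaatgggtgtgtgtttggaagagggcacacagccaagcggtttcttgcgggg

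Cdkn1a and Cdkn1b carried 2 cores each in these windows, Gadd45g carried 1 near the edge, and Btg2 carried none. The nearest extended E-box of that Btg2 region lay 231 bp from the midpoint of its highest peak. Sites nearest the highest peak of the strongest shared region are shown for genes without a region of all antibodies, with 10 bp on each side.
Ccnd1, chr7:144915391-144915416: ccgccttcgcCATCTGcgagctgcca
Ccnd2, chr6:127130663-127130688: gcatcagcacCATCTGggaactagct
Ccnd3, chr17:47469520-47469545: ggaaggcagaCAGATGgatgtagcag
Cdkn1c, chr7:143445360-143445385: gcggatttgaCATATGgttgcgcgga
Cdkn2c, chr4:109677235-109677260: acatgtatttCATATGttctctctct
Btg1, chr10:96646493-96646518: aatgcgttggCAGCTGgctaatggct

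These sites stood 150 bp (Ccnd1), 53 bp (Ccnd2), 10 bp (Ccnd3), 120 bp (Cdkn1c), 540 bp (Cdkn2c) and 90 bp (Btg1) from the peak midpoint. On the plus strand the core read as CATCTG at Ccnd1 and Ccnd2 and as CAGATG, its reverse complement, at Ccnd3. It was CATATG at Cdkn1c and Cdkn2c and CAGCTG at Btg1.

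Ccnd1, which encodes the cyclin D1 of early G1, had 8 regions, of which 4 were shared. None of the shared regions lay upstream of the gene, and the closest was 24.6 kb from the TSS. That closest region (chr7:144914589-144915980) was also the strongest of the gene, at 919.6 for ab1 and 290.2 for ab2, and its midpoint lay in the first coding exon of LTO1, 185 bp from the start of LTO1. The promoter of Ccnd1 itself had only a weak peak of ab1 (chr7:144939381-144940091) with a score of 57.1, centred 133 bp from the TSS in the 5′ UTR, and neither rabbit antibody called it. LTO1 or Fgf15, the gene of a secreted growth factor, had a closer coding TSS than Ccnd1 at each of its 4 shared regions.

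Ccnd2, the cyclin D2 gene that is expressed in cortical progenitors, had 6 regions, 4 of them shared. Its TSS was covered by a peak of ab1 alone with a score of 108.1 (chr6:127150247-127151465), centred 204 bp into the 5′ UTR. Inside intron 4 of the transcript used, shared regions at 17.1 and 20.4 kb scored 469.7 and 671.9 with ab1 and 94.4 and 283.1 with ab2. The higher of them (chr6:127130088-127131225) was the strongest region of the gene. A further shared region 41.5 kb from the Ccnd2 TSS lay 56 bp from the TSS of Tigar.

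Ccnd3, the gene of cyclin D3, had 6 regions, 3 of them shared, in the widest window of the 10 genes at 194.6 kb. The strongest (chr17:47469070-47471249), at 528.1 for ab1 and 322.5 for ab2, lay 34.9 kb upstream, in the annotated 3′ UTR of AI661453. Shared regions within intron 1 at 6.5 and 16.9 kb scored 484.0 and 279.3 with ab1 and 184.4 and 111.9 with ab2. The longest transcript set the TSS, and a shorter transcript starts inside the gene, where a peak of ab1 alone with a score of 61.5 was centred 13 bp from that start. The promoters of all cyclins therefore held at most a peak of ab1 alone, and none of the 3 cyclins had a shared region within 1 kb of the TSS. With 20.8% of coding genes having one, a count of 0 among 3 genes does not stand apart from the background.

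The Cip/Kip inhibitors had 14 shared regions among 19. All 8 regions of Cdkn1a, which encodes p21, were shared. Its strongest region (chr17:29048807-29049712) lay 41.7 kb upstream between genes, with an ab1 score of 1655, an ab2 score of 561.9 and an ab3 score of 79.0, and Srsf3, a splicing factor gene, had the closest coding TSS at 16.6 kb. Near the gene, a region of 2644 bp in intron 1 scored 207.7 with ab1 and 52.1 with ab2, the lowest ab2 score of any shared region of the 10 genes. It was centred 3.6 kb from the TSS of the longest transcript and 826 bp from the start of another Cdkn1a transcript. A group of 3 shared regions in introns of Rab44, between 40.9 and 44.5 kb from the TSS, reached 1140 with ab1 and 255.8 with ab2.

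Cdkn1b encodes p27, an inhibitor that rises as cortical progenitors exit the cycle. Its TSS was covered by a peak of ab1 alone (chr6:134919639-134921589) with a score of 629.1. That score exceeded 99.9% of the ab1-alone regions of the genome, whose median was 77.6, yet ab2 and ab3 called no peak there. The nearest shared region was centred 1.7 kb into the gene, in intron 2, with scores of 456.0 for ab1 and 100.8 for ab2. The region of all antibodies (chr6:134953681-134954540) lay 33.7 kb downstream, in an exon of Lockd, a long noncoding RNA gene named for its place downstream of Cdkn1b, with scores of 814.0, 558.5 and 172.4 for ab1, ab2 and ab3. The last of these was the highest ab3 score among the 10 genes, and the closest coding TSS was that of Apold1 at 27.6 kb.

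Cdkn1c encodes p57, an imprinted inhibitor. It had 5 regions, 3 of them shared, and the promoter region (chr7:143458989-143461708) covered the TSS and was 2720 bp long. Its scores were low, 111.0 for ab1 and 60.7 for ab2, and its midpoint lay 701 bp from the TSS in the coding part of exon 2. Shared regions covered 76.1% of the gene. The strongest region (chr7:143444643-143446430) lay 15.5 kb downstream between genes, at 589.1 for ab1 and 211.3 for ab2, and Cdkn1c had the closest coding TSS to each of the 3.

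Cdkn2c encodes p18, the only INK4 inhibitor among these genes. A single region was found in its window (chr4:109676101-109677364), shared by ab1 at 610.2 and ab2 at 388.9. It was centred 9.5 kb upstream of Cdkn2c but 145 bp from the TSS of Faf1, in the 5′ UTR of that gene. No peak of any antibody lay within the Cdkn2c gene or between it and this region.

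Btg1 had 3 regions, all shared by ab1 and ab2 and all closest to the TSS of Btg1 among annotated genes. The promoter region (chr10:96616362-96618171) was centred 261 bp from the TSS, the shortest such distance of a shared region among the 10 genes by the TSS of the longest transcript, at 152.4 for ab1 and 142.1 for ab2. The others lay 25.7 and 29.7 kb downstream. The latter (chr10:96646245-96647071) was the strongest at 253.7 for ab1 and 205.6 for ab2, which was the lowest maximum of the 10 genes.

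Btg2 had the most regions, with 13 in a window of 104 kb, and 11 of them were shared. Shared regions reached from 41.3 kb upstream to 52.2 kb downstream of the TSS, 5 of them upstream and 6 downstream. Their density was 10.6 per 100 kb, above that of 99.8% of coding genes, and the count alone exceeded that of 97.6%.

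The Btg2 promoter region (chr1:134077266-134079813) covered the TSS, with its midpoint 580 bp from it in intron 1 and scores of 322.1 for ab1 and 201.6 for ab2. It held 8 extended E-boxes over its length and none in its central 200 bp. Stronger regions flanked the gene. The upstream region of all antibodies (chr1:134095677-134097150) lay 17.3 kb from the TSS and scored 1195 with ab1, 617.4 with ab2 and 95.4 with ab3, and Chit1 had the closest coding TSS. The downstream counterpart (chr1:134060094-134061776) lay at 18.2 kb with scores of 1049, 455.9 and 61.2. Between that region and the gene, at 15.6 kb, a region without ab3 scored 1168 with ab1 and 618.7 with ab2, so that the presence of an ab3 peak did not follow the order of the ab1 or ab2 scores at this gene.

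Gadd45g had 10 regions in a window of 101.8 kb. Shared regions numbered 6, and 4 of these had peaks of all antibodies. Its own region (chr13:51845338-51849563) was 4226 bp long, wider than 99.8% of shared regions in the genome, and covered the gene from 1340 bp before its start to 1095 bp past its end. The scores there were 3100 for ab1, 2461 for ab2 and 146.9 for ab3. An ab1 score of 3100 was shared by 661 peaks of the ab1 list, so the order among these is not resolved, and 2.25% of shared regions had at least this score. The ab2 score exceeded that of 99.4% of shared regions with an ab2 peak. The ab3 score exceeded that of 73.7% of the 7211 shared regions with an ab3 peak, a smaller set.

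This made Gadd45g the only gene of the 10 with a region of all antibodies within 1 kb of the TSS, a feature of 1.61% of coding genes. The 250 bases before the RefSeq start of Gadd45g (chr13:51846425-51846674, GRCm38.p6) lie inside this region and hold a single extended E-box core, shown in capitals.
Gadd45g promoter, plus strand: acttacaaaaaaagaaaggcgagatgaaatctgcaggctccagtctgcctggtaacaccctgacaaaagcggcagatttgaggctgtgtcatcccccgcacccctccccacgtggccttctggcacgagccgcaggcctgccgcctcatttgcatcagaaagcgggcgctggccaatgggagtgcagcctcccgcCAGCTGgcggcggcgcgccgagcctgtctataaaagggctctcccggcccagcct

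Among the 10 genes, 7 had upstream sequences in the RefSeq promoter table, as 10 promoters, and the Gadd45g promoter was the only one with an extended E-box in these 250 bases. Over all 32851 promoters of the table the share was 22.0%. Upstream of Gadd45g, 3 further regions of all antibodies lay 29.8, 40.5 and 45.7 kb from the TSS, each between genes and each closer to the coding TSS of Sema4d, which encodes a semaphorin. From the nearest to the farthest they scored 1756, 2015 and 720.8 with ab1, 1172, 915.8 and 472.5 with ab2, and 124.5, 118.0 and 80.3 with ab3. The nearest was chr13:51816107-51817609, the next chr13:51805241-51807110 and the farthest chr13:51800488-51801469. A region 22.2 kb downstream had 652.9 for ab1 and 346.0 for ab2 and no ab3 peak.

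**Figure D2:**
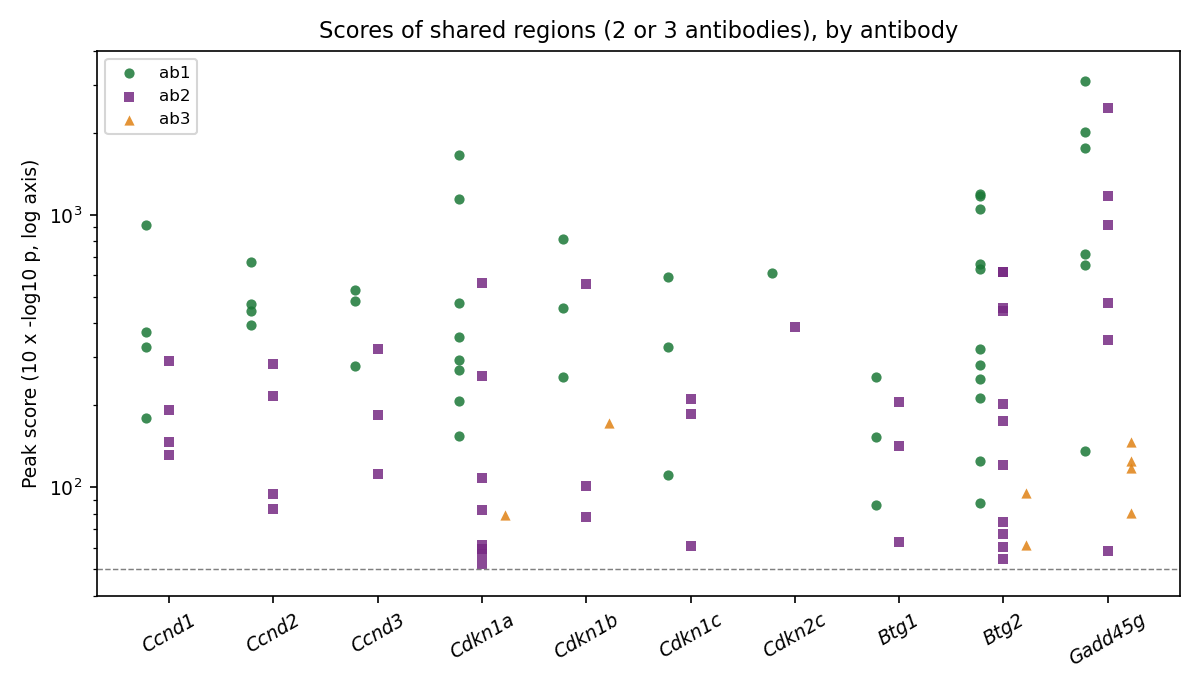
Points give the highest peak score of each antibody in every shared region, by gene, on a log axis in units of 10 times −log10 p, and the dashed line marks the lowest deposited score of 50. Circles (ab1) reach 3100 at Gadd45g, squares (ab2) sit lower, and triangles (ab3) appear at 4 genes between 61.2 and 172.4.

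At the promoters, a shared region within 1 kb of the TSS was found at Cdkn1c, Btg1, Btg2 and Gadd45g, which is 4 of the 10 genes against 20.8% of coding genes. With any antibody counted, 7 of the 10 genes had a region within 1 kb, against 37.2% of coding genes, since Ccnd1, Ccnd2 and Cdkn1b had a peak of ab1 alone. Cdkn1a, Cdkn2c and Ccnd3 had none by the longest transcript. In order of the distance of the nearest shared region, Btg1 (261 bp), Btg2 (580 bp), Cdkn1c (701 bp) and Gadd45g (773 bp) came first, then Cdkn1b (1711 bp), Cdkn1a (3628 bp), Ccnd3 (6465 bp), Cdkn2c (9544 bp), Ccnd2 (17066 bp) and Ccnd1 (24584 bp).

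The distance of the shared regions to the TSS had a median of 22646.5 bp, a value that the width of the window largely sets, and 11 of the 46 were within 10 kb of it. Midpoints fell between genes for 23 regions, in introns for 13 and in exons of noncoding genes for 4, and the coding exons and UTRs held the other 6. Only 10 regions lay inside the gene they were assigned to, and the assigned gene had the closest coding TSS for 23 of 46 (50%, 36.1 to 63.9) and the closest TSS of any annotated gene for 14. The same shares over all shared regions of the genome are not given here, so these counts have no background to be read against. No value in the peak lists ties a region to the expression of a gene.

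**Figure D3:**
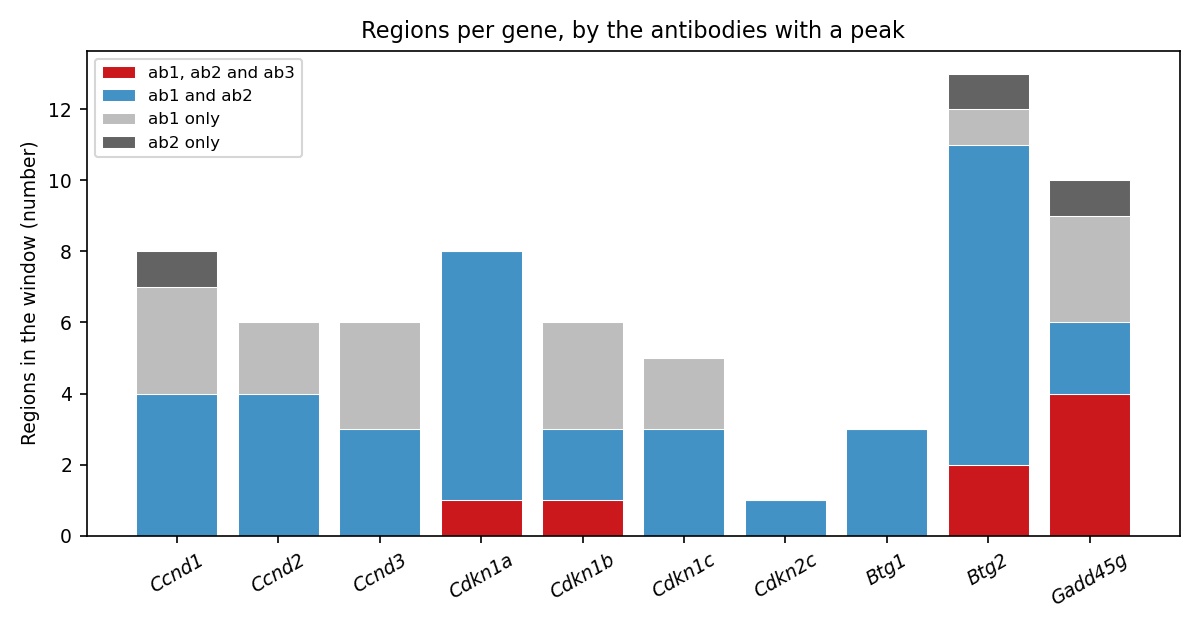
Stacked bars count the regions in each gene's window by the antibodies with a peak: all 3 (red), ab1 and ab2 (blue), ab1 alone (light grey) and ab2 alone (dark grey). Btg2 stands highest with 13 regions and Cdkn2c lowest with 1.

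The number of shared regions per gene had a median of 3.5 over the 10 genes and 1 over coding genes. Windows differ in length, and per 100 kb the medians were 3.05 and 0.95. By density, Btg2, Cdkn1a (98.8%) and Gadd45g (97.2%) exceeded more than 90% of coding genes, and Cdkn2c stood at 49.3%. These densities count every shared region of the window. The named gene had the closest coding TSS for 6 of 11 at Btg2, 2 of 8 at Cdkn1a and 3 of 6 at Gadd45g. A proximity score, which sums a weight that decays exponentially with distance from the TSS over 5 kb, put the genes in another order, from Btg2 (1.40), Btg1 (0.958), Gadd45g (0.947), Cdkn1c (0.916) and Cdkn1b (0.905) to Cdkn1a (0.641), Ccnd3 (0.309), Cdkn2c (0.148), Ccnd2 (0.051) and Ccnd1 (0.014). The coding median was 0.00337, and 7103 coding genes had no shared region. Btg2 exceeded 97.2% of coding genes by this score, and the other 9 genes exceeded between 55.5% (Ccnd1) and 82.9% (Btg1). The order depended on the decay. Over 1 kb, Btg1 (0.770) stood above Btg2 (0.560), and over 50 kb Cdkn1a (4.44) and Gadd45g (3.80) followed Btg2 while Btg1 (2.15) stood below Ccnd2 (2.30). These are ranks within these libraries, without an error over replicates.

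**Figure D4:**
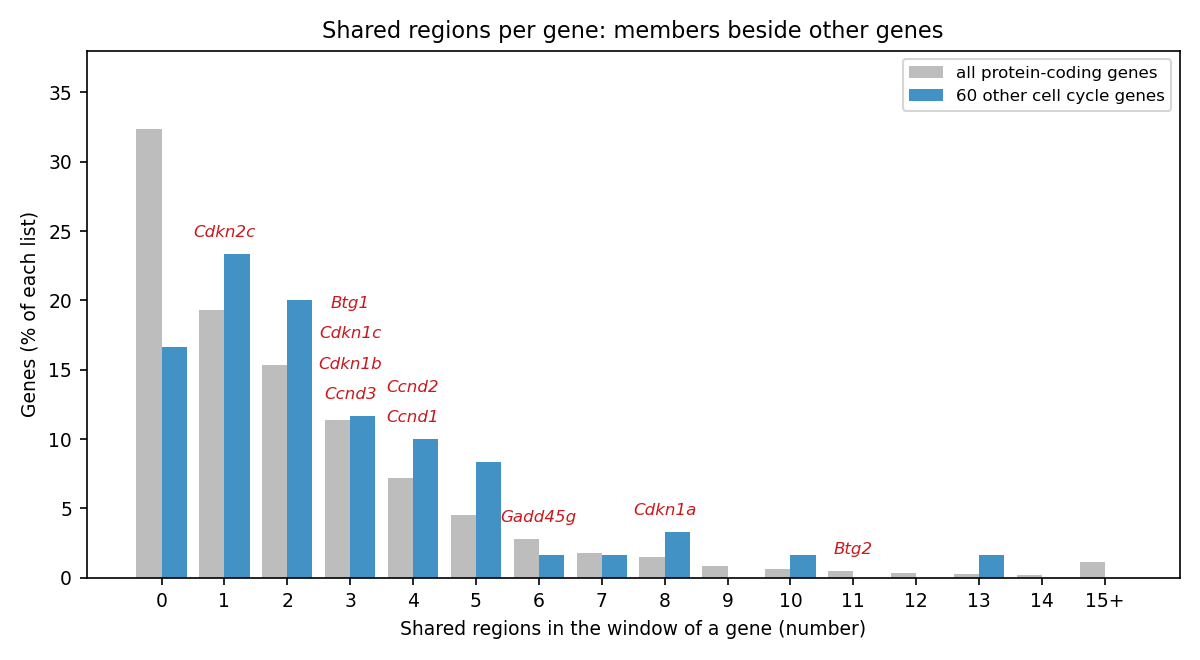
Bars give the percentage of genes (vertical axis) with each number of shared regions in the window (horizontal axis, 15 or more pooled), in grey for all 21938 protein-coding genes and in blue for 60 other cell cycle genes. Names in red mark the count of each of the 10 genes, from 1 at Cdkn2c to 11 at Btg2.

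In every shared region of the 10 genes the ab1 score exceeded the ab2 score, 46 of 46, which was also the case for 89.0% of such regions in the genome. The ratio of ab1 to ab2 ranged from 1.07 at the Btg1 promoter to 5.78 at a Rab44 intron region of the Cdkn1a window, with a median of 2.26 against 1.84 in the genome. Because the scores were not scaled for depth or control, the ratio does not compare binding. Across the 46 regions the log10 scores of both antibodies had a Pearson's r of 0.883, a description across regions that share the same libraries, and r was 0.885 over 32210 regions of the genome.

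The shared regions scored a median of 419.9 with ab1 (85.8 to 3100), and 277.7 was the median of shared regions in the genome. With ab2 the medians were 179.5 and 140.2. Regions with an ab3 peak had higher ab1 scores on the whole, with a median of 1425 (720.8 to 3100) over 8 regions against 326.4 (85.8 to 1168) over the 38 regions of ab1 and ab2, and 3 of the 38 scored above the lowest of the 8. The same order held in the genome, at 1169 and 208.6. The 20 regions of a single antibody had a median score of 67.0, and the ab1 peak at the Cdkn1b TSS was the highest of them.

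The extended E-box occurred in the central 200 bp of 25 of the 46 shared regions (54.3%, 40.2 to 67.8), and 59.6% of shared regions in the genome had it. In windows of the same size that began 1000 bp outside the regions, it occurred in 14 of 92 (15.2%, 9.29 to 23.9), against 22.3% in the genome. Anywhere within the region, 39 of 46 held it (84.8%), against 90.3%. The share was 4 of 8 in regions of all antibodies (50%, 21.5 to 78.5) and 7 of 20 in regions of a single antibody (35%, 18.1 to 56.7). These intervals overlap, and no genome share is given for these subsets or for the classes below. By class, the centres of 7 of 11 cyclin regions, 9 of 14 Cip/Kip regions, 6 of 14 BTG regions and 3 of 6 Gadd45g regions contained it, and the Cdkn2c region did not.

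Of the 36 extended E-box cores in these centres, 25 were CAGATG on either strand, 9 were CAGCTG and 2 were CATATG. In the genome these forms made up 55.0%, 31.7% and 13.4% of the cores. The Ccnd1 region farthest downstream, at 56.6 kb, held 4 cores in its central 200 bp, the most of the 46, while the promoter centres of Btg1 and Btg2 held none. Of the 4 promoter regions, those of Cdkn1c and Gadd45g had a core in the centre, and the Cdkn1c centre (chr7:143460249-143460448, plus strand), which is the most GC-rich of the 46 at 77.0%, is shown with its core in capitals.
Cdkn1c promoter region: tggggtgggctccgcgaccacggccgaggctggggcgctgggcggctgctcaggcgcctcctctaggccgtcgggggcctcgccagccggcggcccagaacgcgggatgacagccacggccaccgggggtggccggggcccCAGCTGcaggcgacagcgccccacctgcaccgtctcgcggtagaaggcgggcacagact

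A list of 60 other cell cycle genes, among them the E and A cyclins, CDKs, E2F factors, MCM helicase subunits and further inhibitors, was searched in the same way. Of these genes, 50 had a shared region in the window (83.3%), 18 a region of all antibodies (30%) and 14 a shared region within 1 kb of the TSS (23.3%). A region of any antibody lay within 1 kb of the TSS at 33 of them (55%). The corresponding counts of the 10 genes were 10, 4, 4 and 7. The list had medians of 2 shared regions per gene and 1.75 per 100 kb. E2f1, a transcription factor that drives S phase genes, had 13 shared regions, and Cdk5r1, which activates CDK5 in neurons, had 10. The study describes CDK5 and CDK5R1 as regulators of neuronal migration and names Cdk5r1 as a NEUROD2 target, so the list is not of cell cycle genes alone. Fzr1, a coactivator of the anaphase-promoting complex, and Mcm2, a subunit of the replicative helicase, had 8 each. Cdk4, the kinase partner of the D-type cyclins, was the only gene of the list with a region of all antibodies within 1 kb of the TSS, 376 bp from it, at 489.8 for ab1, 276.7 for ab2 and 54.9 for ab3.

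The limit of 50 kb left out strong regions beyond the windows of Btg2 and Gadd45g. Which gene has the closest TSS to these outside regions was not determined. The inside regions nearest the limit, given below, had the closest coding TSS at Fgf15 (Ccnd1 window), Fmod (Btg2 window) and Sema4d (Gadd45g window). Just outside it, a region 50.5 kb from Btg2 had scores of 2706, 1309 and 367.2 for ab1, ab2 and ab3, and one 54.4 kb from Gadd45g had 3100, 2729 and 354.5. A weaker region of ab1 at 156.3 and ab2 at 95.5 lay 51.5 kb from Gadd45g. Just inside, regions lay 46.6 kb from Ccnd1 (326.7 and 146.8 for ab1 and ab2), 48.2 kb from Btg2 (631.4 and 174.5) and 45.7 kb from Gadd45g (the farthest of the upstream regions above). The ab3 scores of both strong outside regions exceeded that of every region inside the windows of the 10 genes.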

How the data were processed

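The 10 genes, the list of other cell cycle genes and the measures were chosen with earlier results of these data known. Per the study's methods, the authors mapped single-end reads to mm10 with Bowtie, removed duplicates and multiply mapped reads, and called peaks with MACS for each antibody, using as control the GFP precipitate made with an antibody from the same host. The deposited files hold peak positions and a score, 10 times −log10 of the p-value, with no read counts. Both the scores and the number of peaks called depend on library depth, which the files do not give and which was not corrected for, and intervals (95%, Wilson) cover counting error only.

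Peaks overlapping by at least 1 bp were merged. Genes followed GENCODE M21, with the longest-span transcript setting the span and TSS, and distances were measured from region midpoints. Motifs were read from GRCm38.p6, which is of another strain than BALB/c. All peaks ended within the chromosome lengths on 21 of 21 chromosomes. Promoter sequences came from RefSeq. Python 3.11.15, numpy 2.4.6, scipy 1.17.1, pysam 0.24.0 and matplotlib 3.10.9 were used, and the calculations were first checked on simulated data. Named regions were those within 1 kb of a TSS, the highest by ab1 and those of all 3 antibodies. Further regions were named after their values were seen: other shared regions of Ccnd2, Ccnd3, Cdkn1a, Cdkn1b, Btg1, Btg2 and Gadd45g, and the Ccnd1 region with the most E-boxes. From the list of other genes, the 4 with the most shared regions and those with a region of all antibodies within 1 kb were named. Alternatives changed the score minimum, overlap, window, region position, TSS, motif and decay, and left out each antibody. The GFP libraries were not analysed here.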

Additional observations from a re-analysis of the deposited data

How the results depend on the processing

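No paired analysis was possible, because the GFP libraries had no processed data here, and no result came from a test. Of 47 values over the 10 genes under alternative settings, 27 stayed within 1.5 times the reported count or within the reported interval of a share, and 20 did not. At a window of 10 kb the regions fell to 24, the shared regions to 15, those of all antibodies to 1 and the median per gene to 1.5, and at 100 kb the regions of all antibodies rose to 15 and the median to 5.5. Peaks of at least 100 left 4 regions of all antibodies. Within 500 bp of the TSS, 1 gene had a shared region, and within 2 kb or at the start of any annotated transcript 5 did. Leaving out each antibody in turn gave 50 to 66 regions, 8 to 46 shared regions, 1 to 4 genes with a shared region within 1 kb, a median per gene of 0 to 3.5 and an E-box share of 50 to 54.35%. The low ends of these ranges came from leaving out ab1 or ab2, either of which left 8 shared regions, those with an ab3 peak. The E-box share was 84.8% for CANNTG, 23.9% for CAGCTG alone, 26.1% in the central 100 bp and 76.1% in the central 400 bp. The median proximity score was 0.104 with a decay of 1 kb and 2.27 with 50 kb. Overlap of 50% and the position of the highest peak changed no count by more than 1 region. Of 60 counts per gene, 33 moved by over 1.5 times, 28 of them downward.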

Other observations

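Shared regions of the 10 genes lay on the gene's side of the TSS more often than before it, 31 downstream and 15 upstream, where downstream includes the gene and so a longer stretch of the window. Ccnd1, Ccnd2, Cdkn1b, Cdkn1c and Btg1 had no shared region upstream, which makes 5 of the 10 genes, while Cdkn1a had 4 on each side and Gadd45g had 4 upstream and 2 downstream. The same split over all coding genes is not given here, so these counts do not set the 10 genes apart from others. Where both ab1 and ab2 had peaks, the midpoints of their highest peaks lay a median of 72.5 bp apart (2 to 465 bp), against 54 bp in the genome. The regions were 1036 bp wide at the median, against 865 bp in the genome. Among the 60 other cell cycle genes, 10 had no shared region in the window. These were Cdkn2a, Cdkn2b and Cdkn2d, which encode the remaining INK4 inhibitors, and Btg3, Tfdp1, E2f3, E2f5, Cdk1, Mcm3 and Mcm4, all named here after their values were seen.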
